A study of Mus musculus with 8 samples.

Results

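The kappa light chain variable genes (Igkv genes) were taken as every gene of the deposited count table whose Ensembl mouse identifier has, in the GENCODE M21 annotation of GRCm38, a symbol that begins with Igkv and the gene type of an immunoglobulin V gene. That gave 100 of the 51826 genes in the table, and no measured value entered the choice. The kappa light chain pairs with a heavy chain to form the B cell receptor and, once secreted by plasma cells, the antibody. While a B cell develops, the RAG1 and RAG2 proteins join a V gene of the kappa locus to a J segment, and splicing then links this joined exon to the constant exon Igkc. Because each kappa B cell and its clonal descendants express largely a single joined V gene, the counts of the V genes in spleen describe which of them the kappa transcripts carry, and plasma cells weigh heavily because they hold far more immunoglobulin RNA per cell than resting B cells.

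RNA was sequenced from total splenocytes of female Balb/c mice, after red blood cell lysis, with 1 mouse per library and 4 mice in each of 2 groups. The tRA mice received all-trans retinoic acid, the active metabolite of vitamin A, by mouth in canola oil at 1 mg/kg body weight each day from 3 weeks to 3 months of age, and none of the mice received pristane, the oil used to induce lupus in this strain. The control mice received the vehicle over the same time. The treatment text of the GEO labels gives the tRA dose for the control samples as well, so the groups were taken from the sample titles. The comparison asks how oral tRA alone altered gene expression in the spleen before any induction of lupus. Library totals ran from 30919272 to 37539631 counts. Levels are given as CPM, the count scaled to a library of 1000000 counts with normalization factors from the trimmed mean of M values (TMM), and are listed for mice 1 to 4 of a group in that order, with means ± SD over n = 4 mice.

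The cells matched their label. Cd79a and Cd79b, the signalling chains of the B cell receptor, were detected in every library, at 1396 ± 110.2 and 700.2 ± 92.4 CPM in control and 1271 ± 86.9 and 723 ± 32.4 CPM in tRA mice. Of 4 genes of other organs, Alb, Ins2, Myh6 and Umod, 2 had no count in any library and the summed level of the 4 was 1.40 CPM at most. Of the 60 Igkv pseudogenes in the table, 18 had no count in any library, whereas the Igkv genes with at least 1 count numbered 98 to 100 per mouse.

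The data showed 3 things about the Igkv genes. The summed Igkv level was lower in tRA mice by a margin within the spread between mice, and 1 tRA mouse made up most of that difference. Usage of the single genes was much alike in both groups, and the pairs of mice drawn from different groups were as alike as those from the same group. The median spread of individual Igkv genes between mice of the same group, however, was wider than that of all genes of similar level, a difference that was not tested. No Igkv gene passed the threshold of a false discovery rate (FDR) under 0.1. The gene with the lowest p, Igkv8-19, was lower in all 4 tRA mice than in any control mouse.

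Summed over all 100 genes, the Igkv counts were 66382, 60263, 58677 and 68671 in the control mice and 40994, 62468, 66551 and 53870 in the tRA mice. As a level this was 1797, 1876, 1695 and 2219 CPM in control and 1252, 1967, 1805 and 1646 CPM in tRA mice. Control mouse 4 was the highest and tRA mouse 1 the lowest of the 8, and the other 6 mice of both groups lay between and overlapped. The means were 1897 ± 227 CPM and 1667 ± 306 CPM, and the difference of the mean log2 levels was −0.20, which shrank to −0.067 without tRA mouse 1, to −0.12 without control mouse 4. It was not tested because it is a score over the genes. Igkv genes took 0.188% ± 0.0251 of all counts in control and 0.169% ± 0.0338 in tRA mice. In bulk RNA, fewer B cells or plasma cells and less kappa RNA per cell cannot be told apart.

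Igkc, the constant exon that every kappa transcript carries (ENSMUSG00000076609, chr6:70726435-70726966, plus strand), was also lowest in tRA mouse 1 and highest in control mouse 4. Its level was 5145, 4998, 5209 and 6098 CPM in control and 4509, 4996, 4633 and 4832 CPM in tRA mice. The groups did not overlap, but control mouse 2 and tRA mouse 2 were almost equal. The other mice did not keep their order: control mouse 3, the lowest of the control mice in the Igkv total, was second highest in Igkc, and tRA mouse 2, second highest in the Igkv total, was below every control mouse in Igkc. In edgeR's quasi-likelihood test the log2 fold change was −0.18 (SE 0.0914), or 0.037 with the library size of each mouse set to its summed Igkv count, with a Benjamini-Hochberg FDR of 0.780 over 16484 genes. Without control mouse 4 it was −0.11. For every 1000 Igkc counts there were 349, 375, 325 and 364 Igkv counts in control mice and 278, 394, 389 and 341 in tRA mice. This ratio had group means of 353 ± 21.5 and 350.4 ± 54.1. The groups overlapped, tRA mouse 1 was again the lowest, and without it the tRA mean was 375 ± 29.5.

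**Figure D1:**
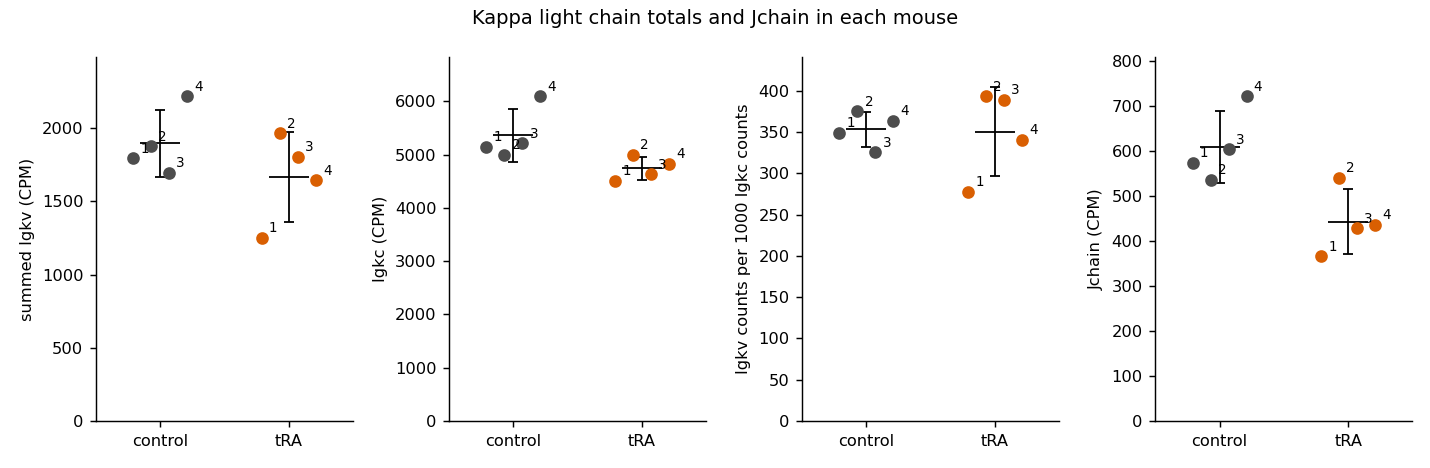
Summed Igkv level in CPM, Igkc level in CPM, Igkv counts per 1000 Igkc counts and Jchain level in CPM, from left to right, in each of 4 control (grey) and 4 tRA (orange) mice, with mouse numbers, the mean as a long line and the SD as error bars. tRA mouse 1 is the lowest of the 8 in every panel, and control mouse 4 is the highest in the summed Igkv, Igkc and Jchain panels.

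The low kappa total of tRA mouse 1 and the high total of control mouse 4 ran through much of the family. Among the 94 Igkv genes that passed the filter on low counts, 54 had their lowest value in tRA mouse 1, against 13.6% of all genes tested. The highest value fell in control mouse 4 for 41 of the 94, against 9.22% of all genes tested. Both mice were picked out by the sum of these same genes, so the counts partly restate that sum. As shares of Igkv counts, 11 of the 94 genes were lowest in tRA mouse 1.

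The markers of antibody-secreting cells showed where other transcripts stood in the same mice. Jchain, which links the subunits of secreted IgM and IgA, was at 574, 537, 604 and 722 CPM in control and 367, 541, 428 and 436 CPM in tRA mice. Its groups overlapped only through control mouse 2 and tRA mouse 2, and tRA mouse 1 was the lowest. The 10 plasma cell markers summed to 1621, 1507, 1477 and 1671 CPM in control and 1404, 1552, 1272 and 1306 CPM in tRA mice, with Jchain the most abundant and none at 0. Of the 10, 7 had lower and 3 had higher values in tRA mice, with a median log2 fold change of −0.15, and the 3 higher were Prdm1 (0.11), Xbp1 (0.020) and Irf4 (0.0093). An unadjusted p under 0.05, found on the lower side for 3.55% of all genes tested, went with 4 of the 10, all lower in tRA mice: Jchain (log2 fold change −0.46), Mzb1 (−0.31), Tnfrsf17 (−0.78) and Derl3 (−0.39). None of them passed the FDR threshold in edgeR or DESeq2, and their part in the Igkv values was not tested. Cd79a and Cd79b, expressed across B cell stages, had log2 fold changes of −0.13 and 0.045, and Ms4a1 and Fcer2a, surface proteins of mature B cells, of 0.20 and 0.15. Of other B cell genes, Blk (−0.15), Pax5 (−0.028) and Cr2 (−0.023) were lower and Cd22 (0.071) was higher in tRA mice. The groups overlapped for each of these B cell genes, and none had an unadjusted p under 0.05 in edgeR. Across the 8 mice Pearson's r of the 10 plasma cell markers with the Igkv total ran from −0.356 for Fkbp11 to 0.808 for Jchain, with 0.806 for Derl3 and 0.0751 for Mzb1. For Jchain Spearman's rho was 0.548 and r was 0.228 without control mouse 4 and tRA mouse 1, so the likeness rested on those mice.

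Other cell types of the spleen were followed with the same kind of lists. The 7 neutrophil markers were all lower in tRA mice, 6 of them with an unadjusted p under 0.05 (on the lower side 3.55% of all genes). None passed the FDR threshold in edgeR, whereas DESeq2 called 3, Camp, Ltf and Ngp, among its 44 of all genes. Their summed level was 821, 1051, 1070 and 913 CPM in control and 475, 503, 480 and 788 CPM in tRA mice, with Ngp the most abundant. Of the 8 T cell markers none had an unadjusted p under 0.05 in edgeR and 1 did in DESeq2 (of all genes 3.78% on the lower and 3.22% on the higher side). They had a median log2 fold change of 0.11 and a summed level of 1730 ± 190 CPM in control and 1812 ± 35.4 CPM in tRA mice. The 5 macrophage and monocyte markers had no p under 0.05 and a median of 0.021. The 5 erythroid markers, also without a p under 0.05, varied most, from 486 CPM in control mouse 4 to 3514 CPM in tRA mouse 3. The 5 germinal centre markers had a median of 0.19 with 1 gene, S1pr2, at a p under 0.05. How these cell types bear on the Igkv values was not tested.

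The 10 genes outside the immunoglobulin loci with a pattern most like that of the Igkv total were Jph1, Gm7045, Plxna2, March3, Sh3bp4, Gm37267, Gm26165, 4933433G15Rik, Flt3 and Klk1, with a Pearson r over the 8 mice from 0.939 to 0.983. Their r values are high by selection, as the highest of all genes tested outside those loci, and the likeness was not tested. All 10 had their lowest value in tRA mouse 1, which follows largely from the choice, because the Igkv total was lowest there. For Jph1, the first of them, Spearman's rho was 0.929 and r was 0.893 without control mouse 4 and tRA mouse 1. For Sh3bp4 r dropped to 0.259 without those mice.

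Within the locus, the 100 genes lay on chromosome 6 from 67555497 to 70704177, a span of 3149 kb, with 38 genes on the plus strand and 62 on the minus strand. The 5 Igkj segments and Igkc follow at 70722562 to 70726966 on the plus strand, so V genes on the minus strand join by inversion and those on the plus strand by deletion. Exons of a V gene summed to 338 to 501 bases with a median of 362, and only Igkv2-137 overlapped another annotated gene, the long non-coding RNA Gm42889 on the same strand. Plus-strand genes held 39.3% ± 1.603 of Igkv counts in control and 41.4% ± 2.59 in tRA mice, and the groups overlapped. Divided into 5 blocks of 20 genes from the far end of the locus to the end near Igkj, the locus gave 25.5%, 18.0%, 15.9%, 20.6% and 20.02% of Igkv counts in control mice and 24.9%, 18.97%, 15.0%, 19.6% and 21.6% in tRA mice. Reads thus came from the whole locus, and the group means of a block differed by at most 1.53 percentage points.

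Usage was uneven between genes. The 18 most used genes together held 50.7% of Igkv counts, whereas 21 genes each held less than 0.1% and together 0.955%. Per kb of exon, the highest of the tested genes exceeded the lowest 202-fold. The effective number of genes, the number of equally used genes that would give the same Shannon entropy, was 60.4, 58.2, 51.9 and 59.8 in control and 59.2, 57.5, 57.5 and 59.6 in tRA mice. Control mouse 3 was the lowest of the 8, and the other 7 differed little. In that mouse the most used gene, Igkv14-126, held 9.19% of Igkv counts (95% Wilson interval 8.96 to 9.43%), while the most used gene of the other 7 mice held 4.87 to 6.49%.

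**Figure D2:**
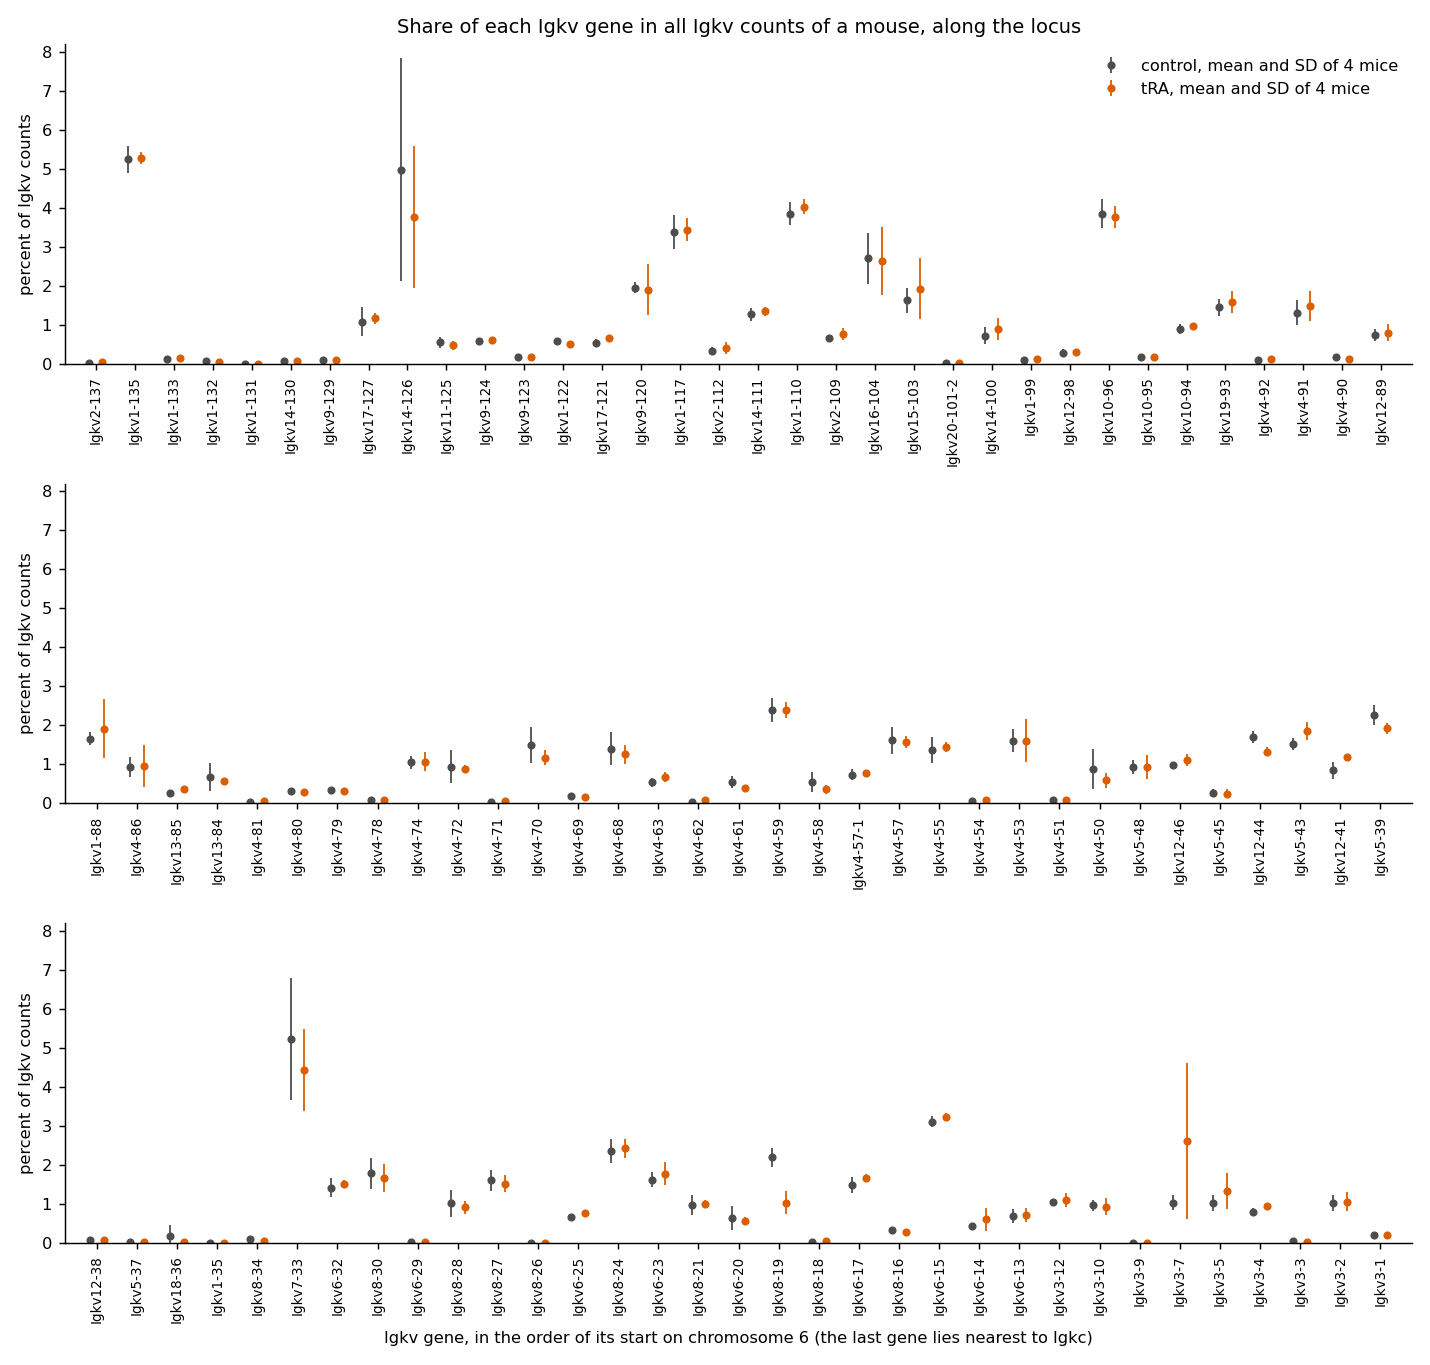
Share of each of the 100 Igkv genes in all Igkv counts of a mouse, in percent, for control (grey) and tRA (orange) mice, with points for the mean and bars for the SD of 4 mice. Genes stand in the order of their start on chromosome 6, from Igkv2-137 at the upper left to Igkv3-1, the nearest to Igkc, at the lower right. Igkv1-135, Igkv7-33 and Igkv14-126 have the highest shares, and the wide bars of Igkv14-126 and Igkv3-7 come from single mice.

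The most used gene was Igkv1-135 (ENSMUSG00000096336, chr6:67609713-67610508, plus strand), near the far end of the locus. Its share of Igkv counts was 4.87%, 5.19%, 5.72% and 5.21% in control and 5.23%, 5.40%, 5.39% and 5.09% in tRA mice. This share was among the steadiest in the family, with means of 5.25% ± 0.350 and 5.28% ± 0.149. As a level Igkv1-135 stood at 99.3 ± 11.8 CPM in control and 88.2 ± 17.7 CPM in tRA mice, a log2 fold change of −0.17. This was −0.053 without tRA mouse 1, −0.090 without control mouse 4 and −0.28 without tRA mouse 2. Igkv6-15 (chr6:70406469-70406992, minus strand) was similarly steady, with a share of 3.11% ± 0.134 in control and 3.24% ± 0.0957 in tRA mice. Its log2 fold change was −0.13, or −0.015 without tRA mouse 1 and −0.24 without tRA mouse 2. Both shares overlapped between the groups.

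The second most used gene was Igkv7-33 (chr6:70058632-70059199, minus strand), the only member of its subgroup among the 100 genes. Its level was 74.8, 122, 113 and 80.2 CPM in control and 37.4, 88.5, 85.8 and 90.4 CPM in tRA mice. Mice of both groups lay between 74.8 and 90.4 CPM, with control mice 2 and 3 above this band and tRA mouse 1 below it. This gave a log2 fold change of −0.37 (SE 0.255), which was −0.14 without tRA mouse 1 and −0.24 without control mouse 2. Igkv14-126 came next in mean share because of control mouse 3 and, less so, tRA mouse 1, as described with the single-mouse genes. Igkv1-110, Igkv10-96, Igkv1-117, Igkv6-15, Igkv16-104, Igkv4-59 and Igkv8-24 completed the 10 most used genes, and their log2 fold changes ran from −0.22 to −0.12. With the library size of each mouse set to its summed Igkv count, the log2 fold change of Igkv1-135, Igkv1-110, Igkv1-117, Igkv6-15, Igkv4-59 and Igkv8-24 turned positive, at 0.068 or less. The fold changes of the 7 genes after Igkv14-126 also rested on single mice. Without tRA mouse 1 they lay between −0.12 and 0.0031, where Igkv16-104 turned positive, and without control mouse 4 between −0.13 and −0.019. Without tRA mouse 2 they lay between −0.33 and −0.20, and without control mouse 3 between −0.30 and −0.20. Measured per kb, the order of the first 3 was the same, at 238 CPM per kb for Igkv1-135, 237 for Igkv7-33 and 210.1 for Igkv14-126, and the last of these differed between mice by more than its distance from the others.

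By sequence, Igkv genes fall into subgroups, and the 100 genes belonged to 20 of them. Igkv4, with 26 genes in the middle of the locus, held the largest share of Igkv counts, 18.8% ± 1.44 in control and 18.0% ± 0.559 in tRA mice. Igkv1, with 10 genes, held 15.0% ± 0.289 and 15.5% ± 0.491. Igkv6, with 9 genes, held 10.1% ± 1.10 and 10.9% ± 0.272. Groups overlapped for each of the 20 subgroups. Igkv3, with 9 genes at the end of the locus nearest to Igkc, was at 6.72%, 5.82%, 5.97% and 6.20% in control and 9.52%, 9.81%, 6.81% and 6.66% in tRA mice. The higher mean of the tRA mice came from tRA mice 1 and 2. In tRA mouse 2 Igkv3-7 was high, at 5.35%, and in tRA mouse 1 Igkv3-7 (2.81%), Igkv3-5 (2.02%, against 0.779 to 1.263% in control mice) and Igkv3-2 (1.40%) were each above all control mice. Igkv8, with 10 genes, was at 10.4% ± 1.55 in control and 8.95% ± 0.783 in tRA mice, and Igkv8-19 belongs to it.

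The profile of shares over the 94 tested genes was compared between every pair of mice. Pearson's r of the log2 shares, which is across genes and has no independent replicates, had a median of 0.946 over the 6 pairs of control mice, 0.955 over the 6 pairs of tRA mice and 0.948 over the 16 pairs of a control with a tRA mouse. The part of Igkv usage that differed between the mice of a pair had a median of 11.9%, 11.9% and 11.6% in the same order. A tRA mouse was thus as like a control mouse in its Igkv usage as control mice were like each other.

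In the test of each gene, 94 of the 100 Igkv genes entered. Igkv1-131, Igkv20-101-2, Igkv5-37, Igkv1-35, Igkv8-26 and Igkv3-9 had too few counts, with 28 at most in any library. With edgeR's quasi-likelihood test, 0 of the 94 had a Benjamini-Hochberg FDR under 0.1, against 0% of all 16484 genes tested. DESeq2 called 0 of them (44 of all genes). In DESeq2, 11 of the 94 had an unadjusted p under 0.05, 8 lower and 3 higher in tRA mice (3.78% and 3.22% of all genes). In edgeR, 12 had an unadjusted p under 0.05 (6.49% of all genes did). Among the 12, 9 had lower values in tRA mice, against 3.55% of all genes, and 3 had higher values, against 2.94% of all genes. The split of lower to higher values was 6 to 6 with the library size set to the summed Igkv count (0.413% and 4.91% of all genes), 14 to 1 with the replicate number as a block (4.34% and 2.94%) and 15 to 0 without control mouse 3 (2.85% and 2.59%). The count of 12 became 7 without tRA mouse 4, 6 lower and 1 higher (2.37% and 1.56% of all genes). The FDR of the Igkv genes lay between 0.757 and 0.997. With the library size set to the summed Igkv count, the percentages of all genes are shifted toward higher values, as the next medians show.

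Of the 94 genes, 69 had a log2 fold change under 0 and 25 over 0, with a median of −0.15 that became 0.031 with the library size set to the summed Igkv count, a scaling that moved the median of all genes from 0.0014 to 0.21. Under 0 were 49.7% of all genes tested. The median of the Igkv genes also depended on 1 mouse at a time: −0.018 without tRA mouse 1, −0.053 without control mouse 4, −0.23 without control mouse 3 and −0.24 without tRA mouse 2. The size of the median thus rested on the Igkv totals of a few mice. For comparison, the 87 heavy chain V genes tested (Ighv) had 51 lower and 36 higher values and a median of −0.092. The 61 V genes of the T cell receptor alpha and beta chains tested (Trav and Trbv) had 11 lower and 50 higher values and a median of 0.24.

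The groups of 4 mice did not overlap for 4 Igkv genes, against 3.54% of all genes tested, 3 of them lower in tRA mice (against 1.63%) and 1 higher (against 1.91%). As a whole, the count of 4 among the 94 is near the share of all genes. The 4 were Igkv8-19, Igkv3-3 and Igkv12-44 on the lower side and Igkv4-71 on the higher side.

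Igkv8-19 (ENSMUSG00000096594, chr6:70340876-70341453, minus strand) is a well-used gene in the part of the locus near Igkj. Its counts were 1533, 1389, 1071 and 1616 in control and 334, 899, 545 and 559 in tRA mice. As CPM this was 41.5, 43.2, 30.9 and 52.2 in control and 10.2, 28.3, 14.8 and 17.1 in tRA mice. All 4 tRA mice were below every control mouse, though tRA mouse 2 came close to control mouse 3. The means were 42.0 ± 8.73 and 17.6 ± 7.70 CPM, a log2 fold change of −1.26 (SE 0.264). This was the lowest p of the 94 genes, with FDR = 0.757 (edgeR, quasi-likelihood test, Benjamini-Hochberg). As a share of Igkv counts, which removes the kappa total, the gene held 2.31%, 2.30%, 1.83% and 2.35% in control and 0.815%, 1.44%, 0.819% and 1.04% in tRA mice. Here too the groups did not overlap. The call depended on the processing, since the FDR was 0.0423 without a filter on low counts, 0.0622 with the library size set to the summed Igkv count and 0.101 in DESeq2, within a range of 0.0423 to 0.999 over all alternatives. The log2 fold change stayed between −1.59 and −1.07 when any 1 mouse was left out. Of all genes tested, Jchain had the highest Pearson r with Igkv8-19 over the 8 mice, at 0.936. Its Spearman rho was 0.833, and its r was 0.835 without tRA mice 1 and 3. Scn3a (0.933), Spata5l1 (0.931), Iglv2 (0.930) and Hcls1 (0.926) had nearly the same r, and Hcls1 had a higher rho, 0.929. Without tRA mice 1 and 3, Syngr2 (0.944) and Pomc (0.942) had a higher r than Jchain. Such r values are high by selection from all genes, and the likeness was not tested.

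Because V genes of a subgroup are close in sequence, a read may fit more than 1 of them, and the relatives of Igkv8-19 were examined for the same pattern. The V exon of Igkv8-28 is the closest, identical at 97.8% of 316 bases, and that of Igkv8-30 is identical at 92.7%. The last 300 bases of each V exon are shown to let the shared stretches be seen, read 5′ to 3′ in the direction of transcription from GENCODE M21 transcripts (GRCm38). All 3 lie on the minus strand, Igkv8-19 at chr6:70340876-70341175, Igkv8-28 at chr6:70143593-70143892 and Igkv8-30 at chr6:70117061-70117360. Capitals mark the bases that differ from Igkv8-19, 7 in Igkv8-28 and 23 in Igkv8-30, which are all the differences over the whole exon.
Igkv8-19: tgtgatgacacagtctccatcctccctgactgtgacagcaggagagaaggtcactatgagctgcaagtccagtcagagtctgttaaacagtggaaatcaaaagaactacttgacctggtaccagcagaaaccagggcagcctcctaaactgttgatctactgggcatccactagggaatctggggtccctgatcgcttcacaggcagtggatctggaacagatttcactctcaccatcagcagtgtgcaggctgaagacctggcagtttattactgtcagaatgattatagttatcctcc
Igkv8-28: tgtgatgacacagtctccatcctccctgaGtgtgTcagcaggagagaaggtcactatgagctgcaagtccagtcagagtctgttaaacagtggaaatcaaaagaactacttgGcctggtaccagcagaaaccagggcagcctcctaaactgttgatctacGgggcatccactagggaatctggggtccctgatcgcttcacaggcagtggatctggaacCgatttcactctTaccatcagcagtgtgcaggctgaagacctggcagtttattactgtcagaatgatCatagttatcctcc
Igkv8-30: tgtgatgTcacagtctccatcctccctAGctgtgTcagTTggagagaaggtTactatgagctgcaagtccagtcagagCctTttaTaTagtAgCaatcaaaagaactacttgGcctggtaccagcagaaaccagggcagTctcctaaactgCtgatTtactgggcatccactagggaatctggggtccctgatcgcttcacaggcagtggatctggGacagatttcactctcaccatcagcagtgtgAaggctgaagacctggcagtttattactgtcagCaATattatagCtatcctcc
Between Igkv8-19 and Igkv8-28 the longest shared run is 77 bases, so a longer read within the exon meets at least 1 differing base. Igkv8-28 was at 21.9, 26.2, 11.3 and 17.2 CPM in control and 11.1, 16.0, 14.6 and 19.2 CPM in tRA mice. Its groups overlapped widely, with a log2 fold change of −0.33. Igkv8-30 was at 34.3 ± 10.8 CPM in control and 27.3 ± 6.36 CPM in tRA mice, also with a log2 fold change of −0.33. The other tested genes of the subgroup were Igkv8-16, Igkv8-18, Igkv8-21, Igkv8-24, Igkv8-27 and Igkv8-34, and of these only Igkv8-34 (−1.24), which has 1 high control mouse, and Igkv8-18 (0.75), which stayed under 1 CPM in both group means, differed from control by more than Igkv8-30 did. No tested relative above 1 CPM had a higher mean in tRA mice. Whether reads shared between relatives were dropped or assigned in the deposited counts is not stated in the sources at hand.

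Igkv3-3 (ENSMUSG00000094478, chr6:70686946-70687534, plus strand) is a little-used gene near Igkj. It had 61, 22, 29 and 42 counts in control and 16, 11, 7 and 17 in tRA mice. All tRA mice were lower, but as shares of Igkv counts, at most 0.0919%, the groups overlapped, with tRA mouse 1 just above control mouse 2. Its log2 fold change was −1.56 (SE 0.387), with FDR = 0.757 (edgeR, quasi-likelihood test, Benjamini-Hochberg).

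Igkv12-44 (ENSMUSG00000096422, chr6:69814631-69815154, minus strand) is used at a middle level. It was at 28.5, 35.9, 28.0 and 36.1 CPM in control and 16.1, 24.7, 27.1 and 20.9 CPM in tRA mice. The gap between the highest tRA mouse and the lowest control mouse was small next to the spread within each group. Its share of Igkv counts, 1.69% ± 0.148 in control and 1.33% ± 0.115 in tRA mice, also did not overlap. On the log2 scale the fold change in CPM was −0.53 (SE 0.155), with FDR = 0.757 (edgeR, quasi-likelihood test, Benjamini-Hochberg).

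Igkv4-71 (ENSMUSG00000073028, chr6:69243158-69243688, minus strand) was the gene with higher values in tRA mice. It had 20, 19, 15 and 8 counts in control and 23, 27, 26 and 27 in tRA mice. These are among the lowest levels tested, at 0.456 ± 0.147 CPM in control and 0.771 ± 0.0780 CPM in tRA mice. The fitted log2 fold change was 0.74 (SE 0.294), with FDR = 0.757 (edgeR, quasi-likelihood test, Benjamini-Hochberg).

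On the scale of shares, 6 genes had groups that did not overlap, and of all genes tested 3.79% did not when divided by the summed Igkv count in the same way. Igkv8-19 and Igkv12-44 were lower in tRA mice (0.176% of all genes on this scale), and Igkv2-137, Igkv13-85, Igkv4-71 and Igkv12-41 were higher (3.62% of all genes). These percentages of all genes are shifted toward higher values and are not a like measure for the Igkv genes. With the library size set to the summed Igkv count, the median log2 fold change was 0.21 for all genes and 0.031 for the Igkv genes. Of the genes with higher shares, Igkv12-41 was the most used, at 0.841% ± 0.230 in control and 1.19% ± 0.0873 in tRA mice. Its level in CPM overlapped between the groups.

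**Figure D3:**
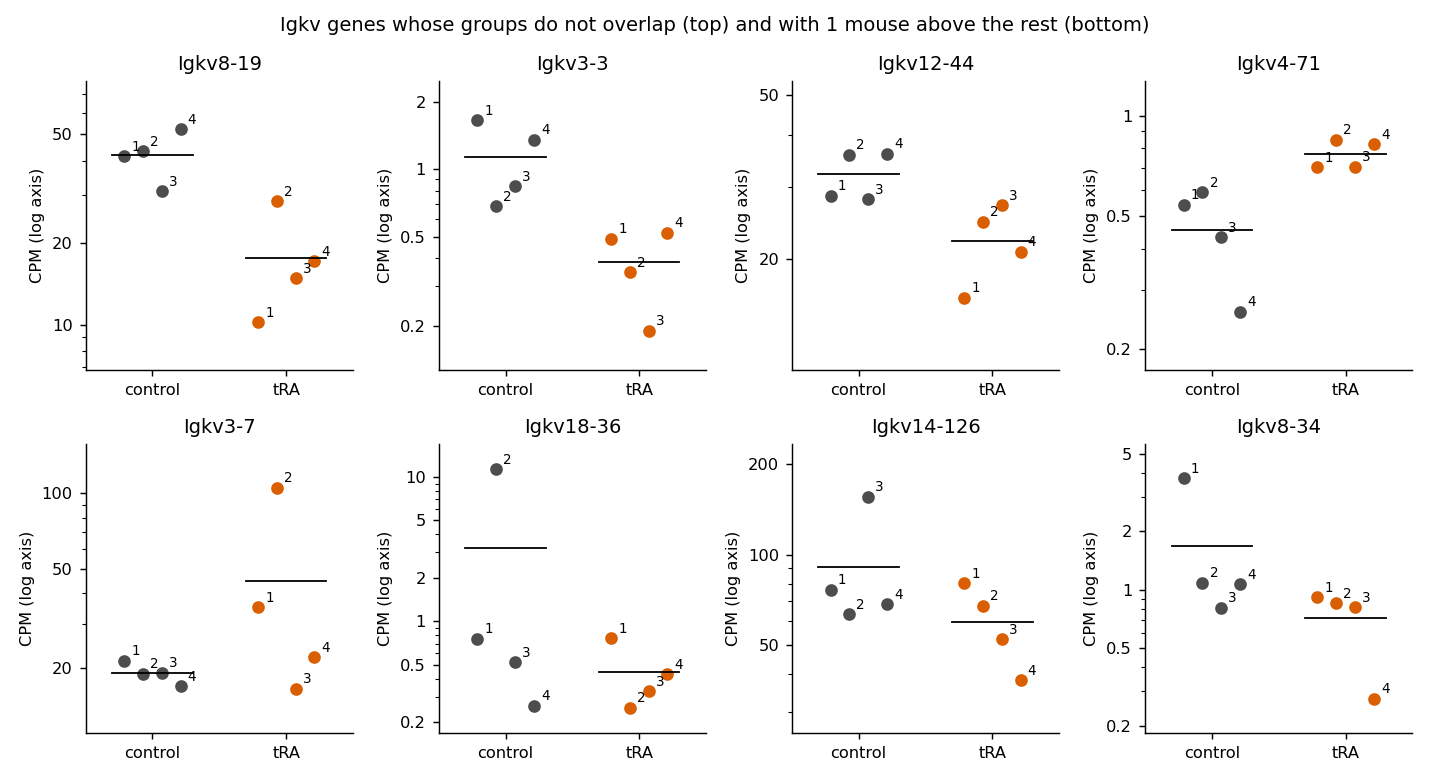
Level in CPM, on a log axis, of 8 Igkv genes in each of 4 control (grey) and 4 tRA (orange) mice, with mouse numbers and a line at the mean of each group. In the upper row the groups do not overlap, with Igkv8-19, Igkv3-3 and Igkv12-44 lower and Igkv4-71 higher in tRA mice. In the lower row 1 mouse lies above the rest: tRA mouse 2 for Igkv3-7, control mouse 2 for Igkv18-36, control mouse 3 for Igkv14-126 and control mouse 1 for Igkv8-34.

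A different kind of pattern came from genes that were high in 1 mouse. Igkv18-36 (ENSMUSG00000076572, chr6:69992465-69992977, minus strand), the only gene of its subgroup, had 364 counts in control mouse 2 and 8 to 28 counts in each of the other 7 mice. Its level was 0.758, 11.3, 0.520 and 0.259 CPM in control and 0.764, 0.252, 0.325 and 0.428 CPM in tRA mice. Control mouse 2 alone stood out, 26.5-fold above the median of the other 7, and there the gene held 0.604% of Igkv counts (95% Wilson interval 0.545 to 0.669%). The log2 fold change of −2.85, lower than that of any other gene in the fit and with an unadjusted p under 0.05, came to −0.23 without this mouse. Its V exon is unlike the others, with 69.5% identity to the closest, Igkv3-9, and its longest run shared with any other Igkv gene, Igkv8-26, is 26 bases.

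Igkv3-7 (ENSMUSG00000076598, chr6:70607437-70608036, plus strand) was the strongest such case among the well-used genes. It was at 21.5, 19.1, 19.2 and 16.96 CPM in control and 35.2, 105, 16.6 and 22.2 CPM in tRA mice. In tRA mouse 2 it reached 5.35% of Igkv counts (95% Wilson interval 5.17 to 5.53%), 3341 counts against 525 to 1152 in the others, and tRA mouse 1 was next. tRA mice 3 and 4 lay with the controls. Its log2 fold change of 1.22 was the highest of the Igkv genes and became 0.36 without tRA mouse 2. Its closest relative, Igkv3-12, was at 19.7, 18.6, 19.04 and 22.01 CPM in control and 14.4, 17.5, 23.8 and 17.3 CPM in tRA mice. Igkv3-12 was thus not high in tRA mouse 2, although the V exons of the pair are identical at 96.8% of 310 bases. The last 300 bases of both exons are printed because they show how few bases separate the counts of Igkv3-7 from those of its relative. They are read 5′ to 3′ from GENCODE M21 transcripts (GRCm38), on the plus strand at chr6:70607737-70608036 for Igkv3-7 and chr6:70518550-70518849 for Igkv3-12, and capitals mark the 10 bases of Igkv3-12 that differ.
Igkv3-7: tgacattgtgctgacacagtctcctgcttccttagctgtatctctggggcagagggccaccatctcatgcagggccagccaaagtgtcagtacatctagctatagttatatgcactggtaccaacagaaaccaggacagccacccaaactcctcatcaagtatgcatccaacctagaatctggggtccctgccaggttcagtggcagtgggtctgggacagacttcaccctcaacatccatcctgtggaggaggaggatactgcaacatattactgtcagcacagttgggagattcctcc
Igkv3-12: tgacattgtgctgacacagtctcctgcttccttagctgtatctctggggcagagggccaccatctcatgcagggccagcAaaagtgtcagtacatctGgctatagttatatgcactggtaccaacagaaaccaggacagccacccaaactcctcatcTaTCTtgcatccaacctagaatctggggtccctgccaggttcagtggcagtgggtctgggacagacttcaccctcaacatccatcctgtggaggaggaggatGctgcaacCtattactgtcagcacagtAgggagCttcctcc

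Igkv14-126 (ENSMUSG00000094345, chr6:67896172-67896642, plus strand) was at 76.4, 63.2, 156 and 68.2 CPM in control and 80.2, 67.5, 52.1 and 38.2 CPM in tRA mice. Control mouse 3 was 2.31-fold above the median of the other 7 mice. It is the mouse whose effective number of genes was lowest. A log2 fold change of −0.61 (SE 0.297) came to −0.23 without control mouse 3.

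The remaining genes with the widest spread between mice were little used. Igkv8-34 had 139 counts in control mouse 1 and 9 to 35 in the others, and its log2 fold change of −1.24, with an unadjusted p under 0.05, became −0.46 without that mouse. Igkv4-62 had 82 counts in tRA mouse 1 and 13 to 32 in the others, with a log2 fold change of 0.94 that became 0.26 without it. Igkv4-78 had 93 counts in tRA mouse 2 and 22 to 89 in the others. Its log2 fold change of −0.17 turned to 0.15 without control mouse 1, to 0.033 without tRA mouse 1 and to 0.0059 without tRA mouse 3, and was −0.86 without tRA mouse 2. The genes of this kind were thus high in different mice, among them control mice 1, 2 and 3 and tRA mice 1 and 2.

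Genes high in 1 mouse were part of a wider spread. For each gene the SD of log2 CPM between mice of a group was pooled over both groups, and its median was 0.400 over the 94 Igkv genes, 0.471 over the Ighv genes, 0.306 over the Trav and Trbv genes and 0.195 over all genes tested. Since this spread depends on the level of a gene, genes of similar level were compared. Between 10 and 100 CPM the median SD was 0.361 for 58 Igkv genes, 0.447 for 23 Ighv genes, 0.136 for 3 Trav and Trbv genes and 0.133 for all 6789 genes. Between 1 and 10 CPM it was 0.488 for 28 Igkv genes, 0.475 for 52 Ighv genes, 0.242 for 27 Trav and Trbv genes and 0.284 for all 4467 genes. Under 1 CPM the 8 Igkv genes, at 0.571, were nearer to the 0.485 of all 2906 genes. Igkv genes above the 90th percentile of all genes, an SD of 0.539, numbered 25, or 26.6% of those tested. No test of these differences was made.

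**Figure D4:**
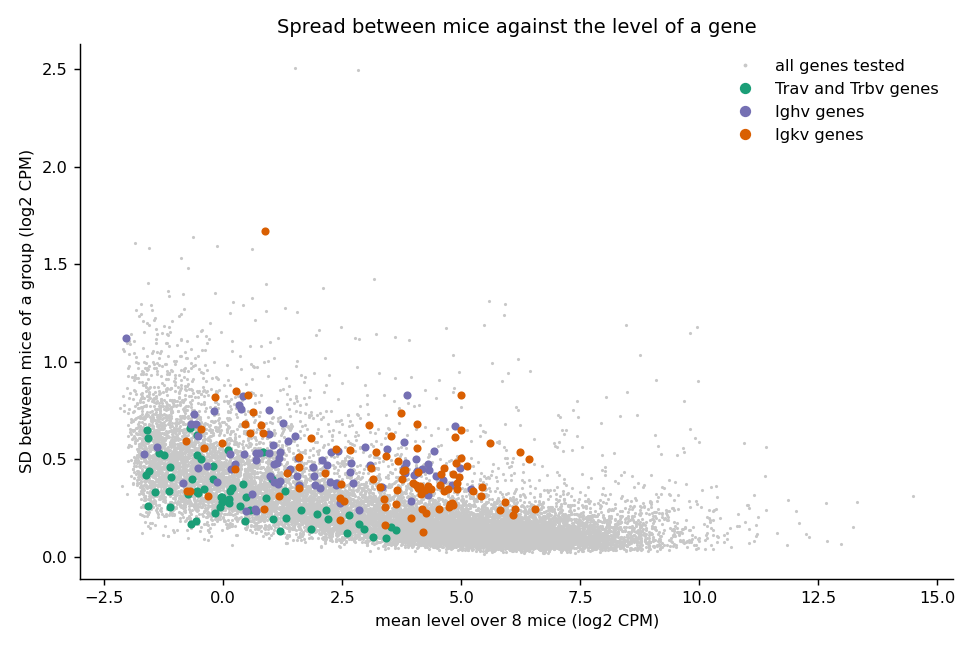
SD of log2 CPM between mice of a group, pooled over both groups, against the mean log2 CPM over the 8 mice, with 1 point per gene tested: Igkv (orange), Ighv (purple), Trav and Trbv (green) and all genes (grey). Most Igkv genes lie above the bulk of the genes of the same level, with a median SD of 0.400 against 0.195 for all genes, and the highest Igkv point, at 1.67, is Igkv18-36.

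Not every Igkv gene varied. Igkv12-46 (chr6:69764523-69765022, minus strand) had the lowest SD of the family, 0.127, with 17.5, 17.1, 18.7 and 20.4 CPM in control and 16.4, 18.7, 20.2 and 16.8 CPM in tRA mice. It was level across all 8 mice, tRA mouse 1 included. The spread of the steadiest Igkv gene was thus close to the median of all genes between 10 and 100 CPM.

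As to sequence, the V exon of an Igkv gene was identical to its closest relative at a median of 94.5% of bases, from 69.5% for Igkv18-36 to 99.0% for the pair Igkv5-43 and Igkv5-45. For 46 of the 100 genes the closest relative was at least 95% identical, and 25 genes shared an unbroken run of at least 100 bases with another. Counts of such close pairs may partly stand for each other, and the reference sequence comes from another strain than Balb/c. What either contributes to the counts was not tested.

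Other segments of the light chain loci were read beside the V genes. The 5 Igkj segments summed to 94.6, 98.3, 76.4 and 85.9 CPM in control and 79.3, 101, 129 and 125 CPM in tRA mice. The groups overlapped, with tRA mice 3 and 4 the highest. Of the 5, 4 had higher and 1 lower values in tRA mice, and Igkj3 had a log2 fold change of 0.51 with an unadjusted p under 0.05 and FDR = 0.757 (edgeR, quasi-likelihood test, Benjamini-Hochberg). Set against the counts of the 100 Igkv genes, the counts of the Igkv pseudogenes came to 0.630%, 0.611%, 0.545% and 0.511% in control and 0.883%, 0.636%, 0.703% and 0.715% in tRA mice. This proportion was higher in every tRA mouse than in any control mouse, by little between tRA mouse 2 and control mouse 1. The pseudogene counts themselves, 320 to 418 in control and 362 to 468 in tRA mice, overlapped. Of the pseudogenes 10 passed the filter on low counts, with 3 lower and 7 higher values in tRA mice and a median log2 fold change of 0.27.

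The lambda light chain, the alternative to kappa, gave a reference. Of its 6 V and constant genes 5 had lower and 1 had higher values in tRA mice, and Iglv2 alone had an unadjusted p under 0.05. The summed Iglv level was 208 ± 26.7 CPM in control and 185 ± 34.5 CPM in tRA mice, and again tRA mouse 1 was the lowest, at 141 CPM. The ratio of the kappa to the lambda constant genes was 7.52 ± 1.16 in control and 7.22 ± 0.690 in tRA mice and overlapped between the groups. Kappa and lambda thus stood in much the same proportion with and without tRA. Rag1, which together with Rag2 cuts the DNA for V to J joining, was scarcely expressed, at 1.03 ± 0.416 CPM in control and 0.480 ± 0.195 CPM in tRA mice, with an unadjusted p under 0.05 and FDR = 0.757 (edgeR, quasi-likelihood test, Benjamini-Hochberg). Of the other 4 genes of rearrangement and B cell progenitors, Dntt had a log2 fold change of 0.066, and Rag2, Vpreb1 and Igll1 did not pass the filter on low counts.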

How the data were processed

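The deposited table holds raw read counts per Ensembl gene for 8 libraries, 1 per mouse. Per the labels, the authors aligned reads with STAR 2.5.2b to GRCm38 and counted with featureCounts 1.5.1, whereas their methods text names other trimming, alignment and counting programs; the use of strand and of reads with several positions is not stated. A second deposited table, the authors' DESeq2 comparison of tRA with control, was not used. Genes were kept by edgeR's filterByExpr (minimum count 10). All 16484 kept genes were tested together with edgeR 4.0.16 (TMM, quasi-likelihood, two-sided, no covariate), called at a Benjamini-Hochberg FDR under 0.1, with R 4.3.3 and limma 3.58.1. The fit was tested on simulated data in which every gene had the same biological coefficient of variation, 0.152. The Igkv genes had a median of 0.226, so this test does not cover their wider spread. Spread used log2 CPM with a prior count of 2. Tables and intervals used Python 3.11.15, pandas 2.3.3 and scipy 1.17.1, sequence comparison Biopython 1.88, and figures matplotlib 3.10.9. Library totals of 30919272 to 37539631 gave 40994 to 68671 Igkv counts per mouse, and 95% Wilson intervals cover counting error only. Between mice of a group the spread of counts was 24.9 to 57.8 times the variance of counting alone for Igkv genes and 12.9 to 65.4 times for all genes, over pairs of mice.

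Alternatives were DESeq2 1.42.0, RLE factors, library size alone, scaling without immunoglobulin genes, other filters on low counts, the replicate number as a block, each mouse left out, other indices and scales for the summed values, and, chosen after seeing the data, the library size set to the summed Igkv count. Named genes were the 10 with the highest mean share, those called or with the lowest p in each direction among genes whose groups do not overlap, the 5 with the largest spread between mice, Igkv8-19 because an earlier fit without a filter called it, genes with a mouse set apart in a group of 4, and the 10 genes most like the Igkv total. Igkv12-46, Cd79a, Cd79b, Ms4a1, Fcer2a, Blk, Pax5, Cr2 and Cd22, the gene most like Igkv8-19, the remaining genes whose shares do not overlap and the closest relatives were chosen after their values were seen. The genes and lists were chosen with earlier results of these data known.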

Additional observations from a re-analysis of the deposited data

Results flagged for a closer look

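In a group of 4 mice, a mouse is set apart here when its gap to the nearest other mouse takes up more of the range of the group than the 95% critical value of Dixon's ratio allows, and chance sets apart about 1 in 20 groups. Among the groups of the Igkv genes this held for 12 of 188, where chance gives about 9.4, so the number as a whole is near that of chance. Of the 12, 6 were low values in tRA mouse 1, the mouse with the lowest Igkv total: Igkv7-33 at 37.4 CPM, Igkv10-96 at 48.4 CPM, Igkv8-24 at 27.8 CPM, Igkv8-27 at 15.2 CPM, Igkv12-41 at 13.99 CPM (control mouse 4 was lower, at 11.7 CPM) and Igkv6-25 at 8.67 CPM. As shares of Igkv counts, those of Igkv10-96, Igkv8-24, Igkv12-41 and Igkv6-25 in that mouse lay within the range of the other 7 mice, and Igkv8-27 lay just under it, at 1.22% against 1.24 to 1.89%. Igkv7-33, at 2.99% (95% Wilson interval 2.83 to 3.16%) against 3.62 to 6.66%, was low as a share too.

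The other 6 fell in several mice. Igkv4-74 was high in tRA mouse 2, at 26.2 CPM. Igkv3-2 was low in the same mouse within its group, at 15.9 CPM, but not below all control mice, of which the lowest was at 15.2 CPM. Igkv4-57 was low among controls in control mouse 2, at 21.9 CPM, while tRA mouse 1 was lower, at 20.5 CPM. Igkv5-45 was high in control mouse 1, at 7.52 CPM against 2.55 to 4.92 CPM in the other 7 mice. Igkv3-4 was low in control mouse 3, at 12.4 CPM. Igkv8-34 was low in tRA mouse 4, at 0.275 CPM or 9 counts.

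Among the summary values and the context genes, 7 more were set apart, making 19 of 330 groups where chance gives about 16.5. The share of the most used Igkv gene was high in tRA mouse 1, at 6.41%, which is Igkv14-126, but higher in control mice 2 and 3, at 6.49% and 9.19%. Igkj5 was high among controls in control mouse 2, at 31.2 CPM, while tRA mice 2, 3 and 4 were higher, at 31.8, 38.8 and 35.6 CPM. Iglc3, a lambda constant gene, was low in control mouse 4, at 144 CPM, the lowest of the 8. Irf4, a transcription factor of plasma cells, was low among controls in control mouse 3, at 193 CPM, while tRA mice 3 and 4 were lower, at 159 and 178 CPM. Lck, a kinase of T cells, was high among tRA mice in tRA mouse 1, at 568 CPM, while control mouse 3 was higher, at 629 CPM. The neutrophil granule genes Camp and Mmp8 were both high among tRA mice in tRA mouse 4. Camp, at 42.7 CPM there, was still below all control mice (64.2 to 76.3 CPM), and Mmp8, at 19.2 CPM, was the highest of the 8.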

How the results depend on the processing

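The count of 0 Igkv genes called stood at 1, Igkv8-19, without a filter on low counts and at 1, again Igkv8-19, with the library size set to the summed Igkv count, an alternative chosen after seeing the data; the cause was not tested. It was 0 under all other alternatives, leaving out any mouse included. That scaling also turned the log2 fold change of Igkc to 0.037, of Igkv1-135 to 0.0088, of Igkv1-110 to 0.068, of Igkv1-117 to 0.024, of Igkv6-15 to 0.059, of Igkv4-59 to 0.0042 and of Igkv8-24 to 0.041, because by construction it sets the summed Igkv level of every mouse equal. With 1 mouse left out the log2 fold change of Igkv16-104 ranged from −0.50 to 0.0031 and that of Igkv4-78 from −0.86 to 0.15, and the cause was not tested. The effective number of genes, 58.0 on average, was 43.7 as the inverse Simpson index, which by construction weighs the most used genes more. Leaving out 1 mouse gave 57.7 to 58.9 for the effective number, −0.28 to −0.067 for the log2 difference of the Igkv total, −0.21 to −0.11 for Igkc and 0.365 to 0.414 for the median SD between mice. Of the other values for the main results, 62 kept their direction and side of the threshold or moved by less than the spread between mice. With the replicate number as a block, 0 Igkv genes were called and the log2 fold change of Igkc was −0.17. With this block 15 Igkv genes had an unadjusted p under 0.05 instead of 12, 14 lower and 1 higher. Of all genes 4.34% were lower and 2.94% higher at that p, against 3.55% and 2.94% without the block. To compare mice with the same number, each gene's log2 CPM was taken as its deviation from the mean of the mouse's own group. Over all genes tested, these deviations had correlations of 0.157, −0.0229, −0.0140 and 0.259. By the same deviations, for 2 of 4 control mice the most similar tRA mouse was the one with the same number. Whether the numbers pair the mice was not tested. Limits: 4 mice per group, a reference from another strain, reads shared by close relatives, unknown use of strand, and no separate measure of B cell or plasma cell number. Genes under 1 CPM rest on few counts.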
